A study of Homo sapiens with 2 samples.

Results

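The genes described here form the receptor-to-caspase part of the cell death machinery: caspases, death receptors of the TNF family with their ligands and adaptors, mitochondrial effectors, inhibitor of apoptosis (IAP) genes and anti-apoptotic members of the BCL2 family. They were taken as a list of 38 genes by name; no measured value entered the rule, but the list was drawn up with earlier results of these data known. Of these, 35 had at least 1 probe set annotated to the gene alone, among 18132 genes represented on the arrays. RIPK1, TRAF2 and BIRC3 were not analysed here. The cells were H1299, a human line established from a non-small cell lung carcinoma, in which p53 is missing. Both groups received a pcDNA3.1 plasmid with a Lipofectamine reagent as a transient transfection: in the EGR1 group it carried EGR1, a zinc-finger factor that stress and growth signals switch on rapidly, and in the control group it was empty. Cells were collected 48 hours later, and each group was read on 1 Affymetrix array. The study asked which genes regulated by EGR1 bear on the malignancy of these cells, with apoptosis in view. With 1 array per group no difference below has a replicate check, none was tested, and "higher" and "lower" describe these 2 arrays alone.

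Apoptosis can start at the cell surface or at the mitochondrion. On the surface, ligands such as FASLG and TRAIL (TNFSF10) bind death receptors, whose adaptor FADD recruits the initiator caspases CASP8 and CASP10; CFLAR competes with them for FADD. At the mitochondrion, released cytochrome c (CYCS) joins APAF1 in the apoptosome, which activates CASP9. The anti-apoptotic BCL2 proteins hold cytochrome c back, and XIAP blocks active caspases until DIABLO or HTRA2 displaces it.

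Promoter sequences are shown for CASP9 and CASP8, which had the largest differences in each direction. XIAP and BIRC2 were added after their values were seen. Their probe sets all read lower, as did those of several other members, such as BIRC5 and BIRC6. The sequences are the 250 bases before the outermost RefSeq start of each gene (GRCh38.p14), written 5′ to 3′ along the gene. Capitals mark the GC box GGGCGG on either strand, a motif of SP-family factors that overlaps in letters with sites of EGR1. The CASP9 stretch lies at chr1:15524791-15525040 on the minus strand and the CASP8 stretch at chr2:201233213-201233462 on the plus strand. Those of XIAP (chrX:123859458-123859707) and BIRC2 (chr11:102346964-102347213) are on the plus strand too.
CASP9: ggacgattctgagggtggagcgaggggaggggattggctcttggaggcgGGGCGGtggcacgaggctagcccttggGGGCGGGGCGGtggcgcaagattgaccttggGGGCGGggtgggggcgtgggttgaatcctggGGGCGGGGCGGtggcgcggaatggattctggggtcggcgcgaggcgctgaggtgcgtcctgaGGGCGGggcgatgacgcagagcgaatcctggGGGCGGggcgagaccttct
CASP8: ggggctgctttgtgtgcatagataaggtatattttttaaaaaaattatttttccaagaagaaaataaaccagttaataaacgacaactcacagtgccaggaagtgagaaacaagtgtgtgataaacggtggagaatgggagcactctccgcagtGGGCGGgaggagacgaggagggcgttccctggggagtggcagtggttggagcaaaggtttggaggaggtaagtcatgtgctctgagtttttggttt
XIAP: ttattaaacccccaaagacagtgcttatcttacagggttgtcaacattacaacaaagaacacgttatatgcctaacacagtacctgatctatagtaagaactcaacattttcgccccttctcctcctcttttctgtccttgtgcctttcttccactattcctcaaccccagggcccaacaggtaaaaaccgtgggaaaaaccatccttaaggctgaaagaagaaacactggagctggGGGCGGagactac
BIRC2: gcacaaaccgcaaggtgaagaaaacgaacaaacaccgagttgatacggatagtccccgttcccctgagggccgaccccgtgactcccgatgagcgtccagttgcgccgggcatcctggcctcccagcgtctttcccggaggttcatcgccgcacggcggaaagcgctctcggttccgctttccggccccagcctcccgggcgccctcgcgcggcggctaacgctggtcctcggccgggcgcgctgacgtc
The CASP9 stretch held 8 GC boxes, the CASP8 and XIAP stretches 1 each and the BIRC2 stretch 0; the longer BIRC2 windows searched next, which run past its 2 listed starts, do hold a box.

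The consensus sites searched for EGR1 were GCGTGGGCG and GCGGGGGCG, on either strand, in windows from 250 bases before to 50 after each RefSeq start. Of the 38 genes, 26 had at least 1 window in the table, with 46 windows in all. A site was found for 3 of these 26 genes (11.5%), against 12.0% of 10312 genes past the signal floor defined below and 6.95% of all 27305 genes in the table. The genes were CASP9, FAS and RIPK1, each with GCGGGGGCG. GCGGGGGCG overlaps a GC box where a G follows it, as it does in both stretches printed next. In CASP9 the site began 71 bases before the inner of its 2 listed starts (chr1:15524268-15524297, minus strand), and in FAS 56 bases before a start (chr10:88991364-88991393, plus strand), with capitals marking the site.
CASP9: caggccctgggGCGGGGGCGggtcctgggg
FAS: cgcgccgccccGCGGGGGCGgggagagagc
The genes that carry these sites lay on different sides of 0, with a log2 difference of 0.49 for CASP9 and -0.18 for FAS. A GC box was present for 19 of the 26 genes (73.1%), against 75.5% of genes past the floor and 48.3% of all genes in the table. The shares among the 26 members were thus close to those of genes past the floor, though the 26 were not filtered by the floor. They include RIPK1, TRAF2 and BIRC3, which were not analysed, and FASLG, TNFSF10 and BCL2A1, which lay under the floor. A match of letters describes the sequence and says nothing of binding.

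EGR1 itself was read by 6 probe sets that did not move together. Probe set 11717861_a_at read 7.70 on the empty-vector array and 11.43 on the EGR1 array, 13.3-fold higher, and 11751643_x_at read 7.17 and 9.92, 6.76-fold higher. The other 4 probe sets were lower, with log2 differences from -0.39 to -0.20; where each lies relative to the plasmid's insert was not established here. Quartiles of the log2 levels were 4.28, 5.77 and 7.50 on the empty-vector array and 4.32, 5.79 and 7.47 on the EGR1 array, so both arrays had nearly the same distribution. Of 6 epithelial carcinoma markers, KRT8, KRT18, KRT7 and KRT19 lay past the floor, while EPCAM and CDH1 were under it on both arrays. These keratins were not alike on both arrays: by the brightest probe set KRT8 differed by 2.00, KRT18 by 1.76, KRT19 by 0.24 and KRT7 by -0.55, and their part in the results below was not tested. The mesenchymal marker VIM read 13.73 and 13.66. Of markers of other cell types, 2 of 5 leukocyte genes (CD3E and CD68), 2 of 3 endothelial genes (PECAM1 and VWF) and 0 of 4 fibroblast genes had a mean level past the floor, and the leukocyte marker PTPRC read 2.95 and 2.80.

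Each gene is represented by its brightest probe set, the one with the highest mean log2 level of both arrays. The difference is the log2 level on the EGR1 array minus that on the empty-vector array, and 0.32, a ratio of 5 to 4, is used as the threshold. A gene counts as past the floor when its mean level exceeds 5.22, the 40th percentile of all probe sets; 29 of the 35 measured members did so and 6 did not. Levels on this scale are not compared between genes.

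Differences among the members were small. CASP9 was the only member past the floor that was higher by the threshold or more, and CASP8 and TNFRSF10A were the only ones lower by the threshold or more. Among all 12652 genes past the floor, 4.36% were higher and 3.25% lower by as much, so the 1 and 2 of 29 members lie near the background. The remaining 26 members were within the threshold, and 0 of 29 reached 1.5-fold in either direction (0.941% of all genes higher and 0.229% lower). The median absolute difference was 0.13 over the 29 members and 0.11 over all genes past the floor. Where a gene had several probe sets, these were the sole repeats, and the pooled SD of their differences was 0.15 over 7113 genes. This SD leaves out error between cultures and arrays. The absolute difference exceeded it for 12 of 29 members, against 37.5% of all genes past the floor.

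**Figure D1:**
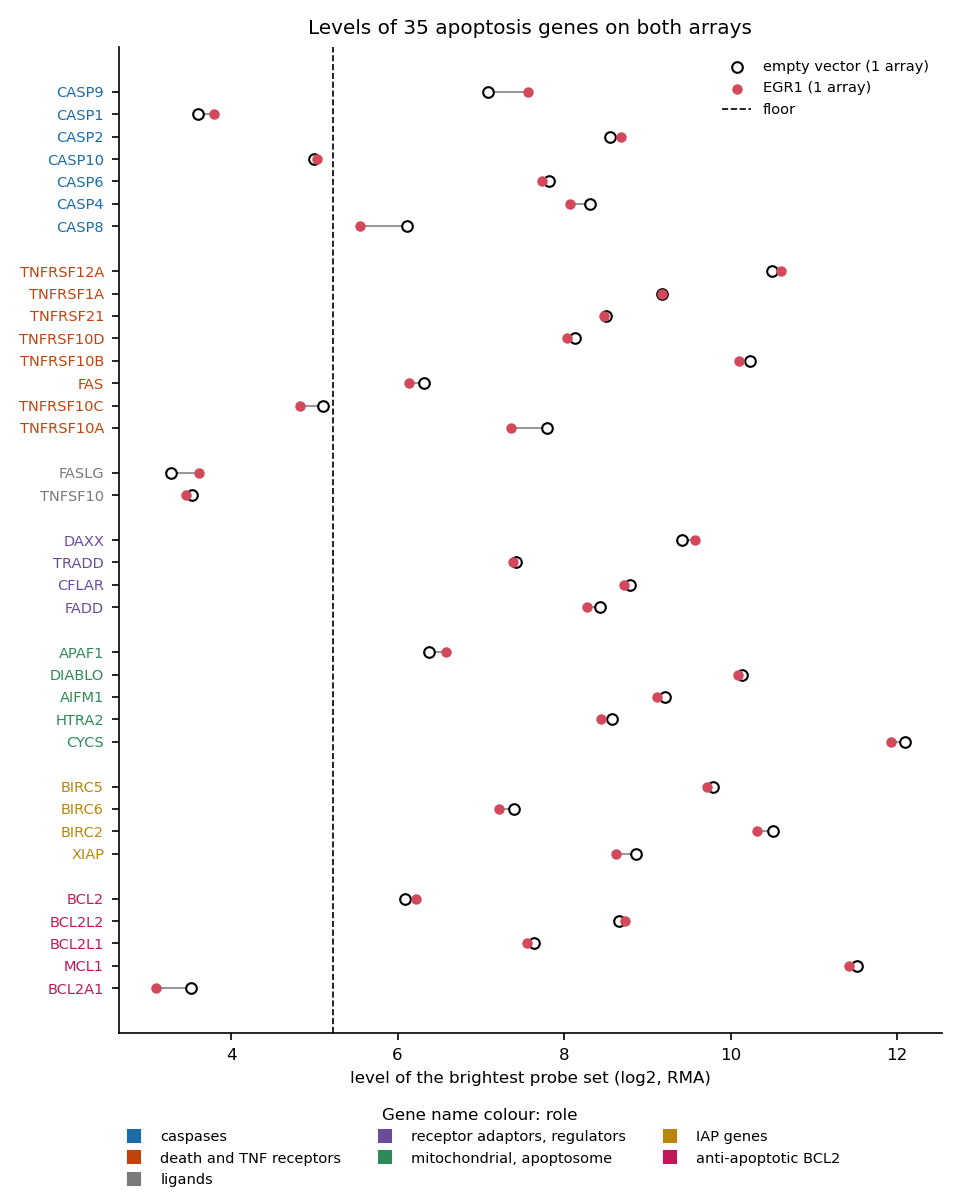
Log2 level (RMA) of the brightest probe set of each of the 35 measured genes on the empty-vector array (open circles) and the EGR1 array (filled circles), 1 array per group, ordered by role and, within a role, by difference; the dashed line is the floor of 5.22. The widest gaps past the floor are those of CASP8, CASP9 and TNFRSF10A, and 6 genes lie left of the floor.

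The direction of the small differences was more often down than up. Past the floor, 21 of 29 members were below 0, 7 above it and 1 identical on both arrays, against 52.8% of all genes below 0. The median difference was -0.09 over the 29 members past the floor and -0.09 over all 35 measured, beside -0.02 over all genes past the floor. The members are brighter than most genes, with a median level of 8.51 against 7.50, and brighter genes were more often lower: 58.2% of genes past the 60th percentile of probe sets were below 0, and 19 of the 26 members past it. After a lowess correction for level 20 of 29 members were below 0, against 47.3% of all genes. The members' median was then -0.04, beside 0.01 over all genes past the floor. In bulk cells, fewer cells with a transcript and less of it per cell cannot be told apart.

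**Figure D2:**
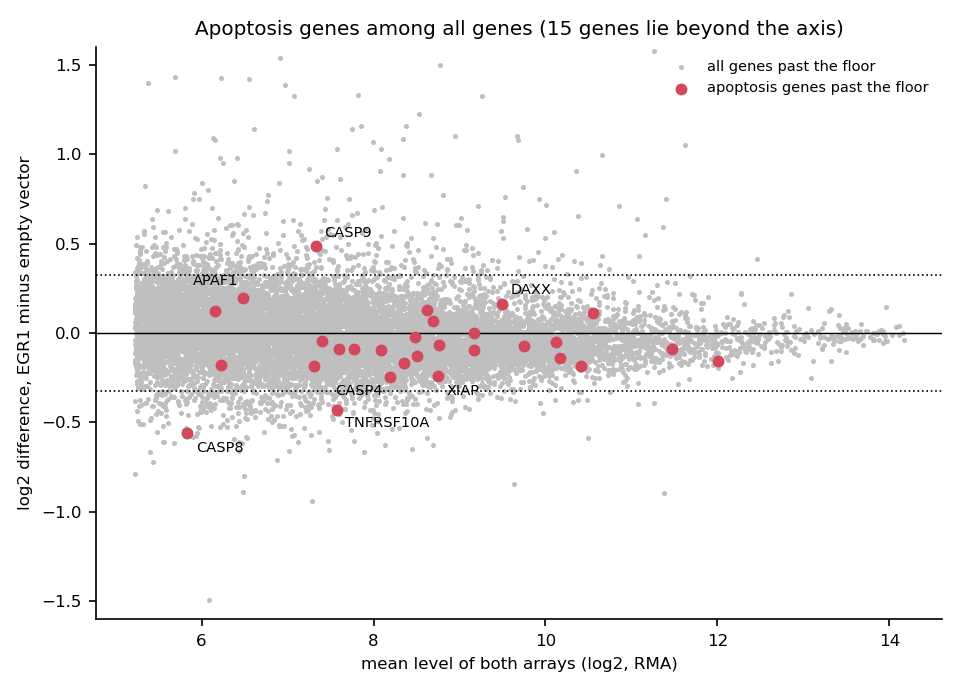
Log2 difference (EGR1 minus empty vector) against mean log2 level of both arrays for all 12652 genes past the floor (grey) and the 29 members past it (red); dotted lines mark differences of 0.32, and 15 genes lie beyond the axis. CASP9 lies above the upper dotted line, CASP8 and TNFRSF10A below the lower, and the other members between them.

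Of the initiator caspases, CASP9, the apoptosome's caspase, differed upward. Its brightest probe set read 7.08 on the empty-vector array and 7.57 on the EGR1 array, a difference of 0.49 or 1.40-fold. Its other probe set, also past the floor, differed by 0.19. Both CASP9 probe sets were thus higher, by unequal amounts. CASP2, an initiator linked to DNA damage and mitotic faults, read 8.56 and 8.69. Its 3 probe sets were all above 0, at 0.03 and 0.13 past the floor and 0.21 under it.

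CASP8, the initiator caspase of death receptors, had the largest downward difference by its brightest probe set, 11728978_x_at, which read 6.11 and 5.55 (1.47-fold lower). The only other CASP8 probe set past the floor, 11754153_x_at, went the other way, from 5.63 to 5.78. Over all 8 CASP8 probe sets 5 were above 0 and 3 below, with a mean difference of -0.03 (SD 0.29 between probe sets), so its probe sets gave no common direction. Of those above 0, 11762810_x_at and 11762809_at, both under the floor, had the same difference of 0.27. Both probe sets past the floor carry the suffix _x_at, which marks probes that may cross-hybridise. Without that suffix the brightest CASP8 probe set differed by 0.03.

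CASP10, the close relative of CASP8 at death receptors, stayed under the floor (at most 5.04 on either array). CASP8, CASP10 and CFLAR are neighbours on their chromosome with no other protein-coding gene between them, and CFLAR read 8.79 and 8.72. These neighbours had brightest-probe-set differences of -0.56, 0.04 and -0.07. CASP6, an executioner caspase, read 7.82 and 7.73 by the single probe set annotated to it alone. That probe set also carries the suffix _x_at, as do the brightest probe sets of TNFRSF10B, DAXX and BCL2L1. Probe sets annotated to CASP6 together with PLA2G12A, attributed to no gene, differed by -0.21 and -0.06.

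The inflammatory caspases differed in how well they were measured. CASP4, which senses intracellular lipopolysaccharide, read 8.31 and 8.07 (1.18-fold lower), and all 5 of its probe sets past the floor were lower, by -0.34 to -0.08. CASP1, the caspase of the inflammasome, lay under the floor in all 9 of its probe sets, and its brightest read 3.60 and 3.80.

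**Figure D3:**
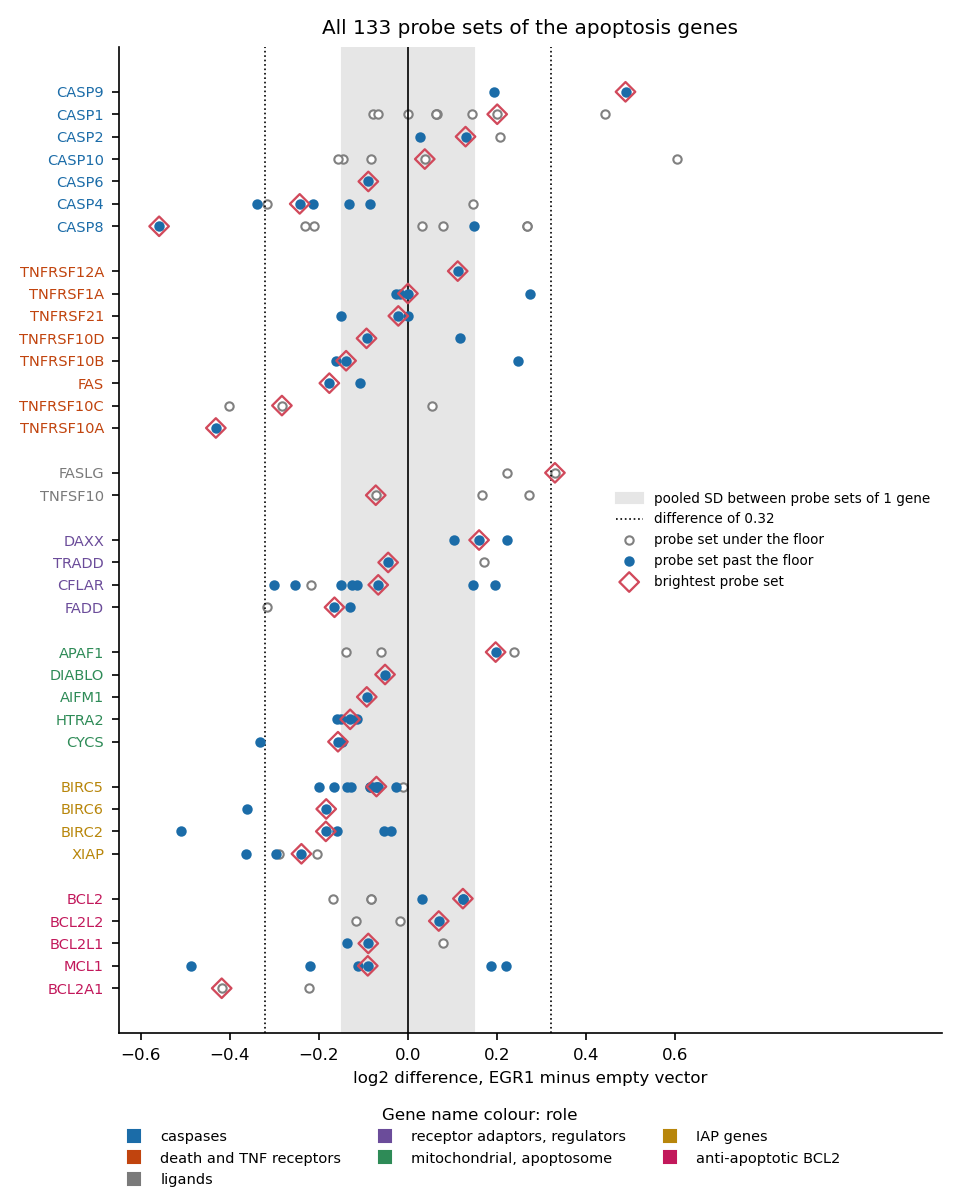
Log2 difference (EGR1 minus empty vector) of all 133 probe sets of the 35 genes, by role; filled circles are past the floor, open circles under it, red diamonds mark the brightest probe set, the grey band is the pooled SD of 0.15 and dotted lines mark differences of 0.32. On this uncorrected scale every probe set of the 4 IAP genes lies left of 0 (22 of 24 after the lowess correction), CASP8 and MCL1 probe sets spread over both sides, and the CASP9 probe sets lie right of 0.

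Receptors for TRAIL include the death-inducing TNFRSF10A and TNFRSF10B and the decoys TNFRSF10C and TNFRSF10D. TNFRSF10A read 7.79 and 7.36, 1.35-fold lower, by its only probe set, so this value has no repeat. TNFRSF10B read 10.24 and 10.10, with the other probe sets at -0.16 and 0.25. TNFRSF10D read 8.13 and 8.04, with its other probe set at 0.12, and TNFRSF10C lay under the floor (5.11 and 4.83). The 4 genes are consecutive protein-coding genes on their chromosome, and all 4 were lower by the brightest probe set, while TNFRSF10B, TNFRSF10C and TNFRSF10D each had a probe set above 0.

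FAS, the receptor of FASLG, read 6.32 and 6.14, and its 2 probe sets were lower by -0.18 and -0.11. TNFRSF1A, the main TNF receptor, read 9.17 on both arrays; 3 of its 4 probe sets lay between -0.03 and 0, and its dimmest differed by 0.27. TNFRSF21 (death receptor 6) read 8.50 and 8.48. TNFRSF12A, the receptor of TWEAK, read 10.49 and 10.60 and was the only receptor past the floor above 0. Apart from TNFRSF10A, the receptors past the floor were thus within 0.18 of 0 by their brightest probe sets.

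The ligands were dim. FASLG read 3.29 and 3.62 and TNFSF10 3.53 and 3.46, and all 5 of their probe sets were under the floor, among the lowest levels on the arrays (percentile 8.56 of genes or lower). The FASLG difference of 0.33 passes the threshold but rests on this low signal, and it is not counted.

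Among the receptor adaptors and regulators none reached the threshold. FADD, the death-domain adaptor, read 8.44 and 8.27 (1.12-fold lower). Its 3 probe sets were all lower, at -0.17 and -0.13 past the floor and -0.32 under it. TRADD, the TNF receptor adaptor, read 7.43 and 7.38. CFLAR, which encodes the FLIP inhibitor, had 6 of its 8 probe sets past the floor below 0 and 2 above, over a range from -0.30 to 0.19. DAXX, a FAS-binding protein better known as a nuclear histone chaperone, read 9.41 and 9.57, and its 3 probe sets differed by 0.10 to 0.22, all above 0. Each FADD probe set was thus below 0 and each DAXX probe set above it.

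Of the mitochondrial effectors and the apoptosome, 4 of 5 were lower by small amounts. CYCS read 12.09 and 11.93, and its 3 probe sets were lower by -0.33 to -0.15. The probe set at -0.33 was close to the floor, at 5.47 and 5.14. HTRA2, a mitochondrial protease that binds IAPs, read 8.57 and 8.44, and its 4 probe sets lay closely together at -0.16 to -0.11 (mean -0.14, SD 0.02 between probe sets). The HTRA2 probe sets thus agreed more closely than the pooled SD of 0.15. DIABLO (Smac), which also displaces XIAP, read 10.14 and 10.09, and AIFM1, the apoptosis-inducing flavoprotein, 9.21 and 9.12. APAF1, the apoptosome scaffold, went the other way at 6.38 and 6.58 (a difference of 0.20), but its other 3 probe sets, under the floor, ranged from -0.14 to 0.24.

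The 4 measured IAP genes of the list were lower in every probe set as deposited, and in 22 of 24 after the lowess correction; this was not so for IAP genes outside the list. XIAP, the direct caspase inhibitor, read 8.87 on the empty-vector array and 8.63 on the EGR1 array (1.18-fold lower), and its 5 probe sets differed by -0.36 to -0.20. BIRC2 (cIAP1), a ubiquitin ligase of the TNF receptor complex, read 10.51 and 10.32 (1.14-fold lower), with 5 probe sets from -0.51 to -0.04. BIRC6, a very large IAP with ubiquitin-conjugating activity, read 7.40 and 7.22 (1.14-fold lower). Its other probe set, close to the floor at 5.48 and 5.12, differed by -0.36. BIRC5 (survivin), which also serves in mitosis as a subunit of the chromosomal passenger complex, read 9.79 and 9.72, with 12 probe sets from -0.20 to -0.01. On the deposited scale all 24 probe sets of these 4 genes thus had the same direction, and none of the 4 reached the threshold.

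Probe sets of a gene share their arrays and can share probes, so this count is not one of independent measurements. Among all probe sets past the floor 54.7% were below 0, against 20 of 20 for these 4 genes. After the lowess correction these were 50.8% of all and 18 of 20, with BIRC2 and BIRC5 each having 1 probe set above 0. Of 21 members with at least 2 past-floor probe sets, 10 were below 0 in all of them, 4 above 0 in all and 6 on both sides, and TNFRSF21 had 1 probe set identical on both arrays. Over all genes with at least 2 of them, 34.4% were below 0 in all and 38.8% on both sides. The IAP median was -0.18, the lowest of the 6 roles with members past the floor, and it was below 0 under each alternative tried. BIRC7, an IAP gene outside the 38, went the other way: it read 6.89 and 7.09, and its 3 probe sets, all past the floor, differed by 0.20 to 0.30. NAIP, another such gene, lay under the floor, with its 2 probe sets at -0.15 and 0.29. Over 6 further IAP genes and IAP binders, 7 of 13 past-floor probe sets were below 0 (53.8%). Of these 13, only the 3 of BIRC7 belong to an IAP gene. The others are of GSPT1 (5), UBE2Z (4) and SEPTIN4 (1). The direction was thus not common to all IAP genes measured, which past the floor rests on BIRC7 alone. These values were chosen for mention after they were seen.

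Anti-apoptotic BCL2 genes had a median difference of -0.01 over the 4 past the floor. BCL2 read 6.10 and 6.22. Its 3 probe sets past the floor were above 0, of which 11738350_a_at and 11738351_x_at had the same difference of 0.12. Its 3 probe sets under the floor were below 0. BCL2L1 (BCL-XL) read 7.65 and 7.56 and BCL2L2 (BCL-W) 8.66 and 8.73. MCL1, a short-lived guardian of the mitochondrion, read 11.51 and 11.42, but its 6 probe sets ran from -0.49 to 0.22. BCL2A1 lay under the floor (a difference of -0.42 from 3.52). The protective BCL2 genes past the floor thus showed no common direction, and by their brightest probe sets none differed by more than 0.12.

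MCL1 and CASP8 were the only members whose probe sets past the floor spanned more than 0.5 on the log2 scale (2 of 21, beside 5.45% of all genes with at least 2 of them). In MCL1 the brightest 2 probe sets differed by -0.09 and -0.22, the next brightest by 0.22 and 11715487_a_at by -0.49. Which transcripts of MCL1 or CASP8 each probe set reads was not established here.

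Median differences by role, over members past the floor, were -0.09 for caspases (5 genes), -0.09 for receptors (7), -0.06 for adaptors and regulators (4), -0.09 for mitochondrial effectors and apoptosome (5), -0.18 for IAP genes (4) and -0.01 for anti-apoptotic BCL2 genes (4). All 6 medians were below 0, those of roles that promote and of roles that inhibit apoptosis, although the BCL2 median was 0.03 after the lowess correction. The caspase median has no settled sign, since it was 0.02 past the 60th percentile and 0.04 over all 7 caspases.

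A further list of 62 genes covered the rest of the pathway, of which 60 had a named probe set and 49 lay past the floor. By the same threshold 3 of these were higher and 2 lower, and 20 of 49 were below 0, with a median of 0.02. Over all genes past the floor 4.36% were higher and 3.25% lower by as much and 52.8% were below 0, so the called counts lie near the background. CYLD, a deubiquitinase that acts on RIPK1 in the TNF receptor complex, read 6.16 and 6.67 (1.43-fold higher), and the 3 past-floor probe sets differed by 0.05 to 0.58. LMNA, a nuclear lamin cleaved by CASP6, read 10.56 and 10.92 (1.28-fold higher), with all 7 probe sets above 0. TNFSF9, the 4-1BB ligand, read 6.55 and 6.92 (1.29-fold higher), and its other probe set differed by 0.02. These genes lay higher, LMNA in each probe set and TNFSF9 essentially in a single probe set.

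TNFAIP3 (A20), which edits ubiquitin chains in the same complex as CYLD, read 7.11 and 6.70 (1.33-fold lower), and its other probe set differed by -0.32. FAIM, an inhibitor of FAS-induced death, read 6.68 and 6.27 (1.33-fold lower); both of its probe sets hold the same values and count as a single measurement. CYLD and TNFAIP3, both negative regulators of NF-kB signalling, thus lay on different sides of 0.

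**Figure D4:**
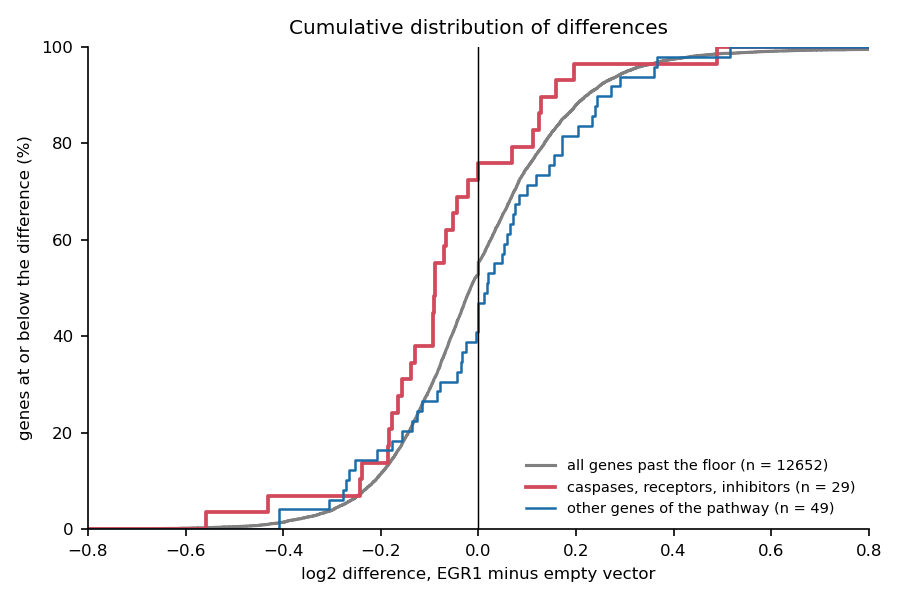
Cumulative share of genes (percent) at or below each log2 difference (EGR1 minus empty vector) for all 12652 genes past the floor (grey), the 29 members past it (red) and 49 other genes of the pathway (blue). At 0 the members' line stands higher than that of all genes, with 21 of 29 below 0 against 52.8%. The line of the other pathway genes stands lower there, with 20 of 49 below 0.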

How the data were processed

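The authors deposited log2 levels per probe set, computed by RMA per the submitters' processing notes; RMA corrects background, normalizes between arrays and summarises probes, so global shifts between arrays are removed. The version, the settings and a genome build are not named in the labels or the file. Per the labels' protocols, 2 µg of total RNA per sample went into biotinylated cRNA. Whether RNA was pooled from several cultures is not stated there. The number of arrays (2) limits the precision.

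Of 49395 probe sets, 102 were controls, 44988 had 1 gene symbol in the platform annotation, 1832 had several and 2473 had none; probe sets with several symbols were attributed to no gene. Symbols were updated by Entrez ID through a RefSeq table (GRCh38.p14), which matched 44961. Promoters came from RefSeq (GRCh38.p14), matched by symbol. Ties for the brightest probe set went to the first identifier. Identical values on both arrays occurred in 5.29% of probe sets. The members, gene lists and thresholds were chosen with earlier results of these data known. Named were EGR1, all members, and other pathway genes past the floor with a difference of 0.32 or more in size. A separate rule chose promoters of members at or beyond 0.32 in size with all past-floor probe sets on 1 side of 0. It also chose members whose past-floor probe sets spanned more than 0.5. By this rule the promoters of CASP9 and CASP8 were shown. Those of XIAP, BIRC2 and FAS were added after their values were seen. For TNFRSF10A and MCL1, which the rule also covers, no promoter is shown.

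Python 3.11.15 with numpy 2.4.6, pandas 2.3.3, statsmodels 0.14.6 (lowess, span 0.3) and matplotlib 3.10.9 was used. Counting and correction were tested on simulated data. The planted differences were larger than any seen among the members, and the noise was smaller than the pooled SD. That test therefore checks the code and cannot tell how reliable differences as small as those of the members are. Alternatives were another probe-set rule, tie rule, floor, fold threshold and the lowess correction.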

Additional observations from a re-analysis of the deposited data

How the results depend on the processing

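No paired analysis was possible because each group held 1 array, and no array could be left out. The count of members higher by the threshold was 2 with no floor, and 0 when the threshold was 1.5-fold. The count lower was 3 with no floor, 1 when all probe sets were averaged, 1 with the floor at the 60th percentile and 0 at 1.5-fold. For the other pathway genes the count higher was 1 when probe sets were averaged and 2 without _x_at and _s_at probe sets. It was 4 after the lowess correction and 0 at 1.5-fold. Their count lower was 1 without _x_at and _s_at probe sets and 0 at 1.5-fold. Ligands had no member past the floor and so no median. The members' median was -0.043 after the lowess correction, beside 0.009 over all genes past the floor. The caspase median was 0.12 without _x_at and _s_at probe sets, with 2 genes left, 0.038 with no floor and 0.020 with the floor at the 60th percentile; the receptor median was -0.018 with probe sets averaged. CASP8 turned to 0.031 without _x_at and _s_at probe sets. Among members past the floor, the sign turned for 4 with probe sets averaged, 1 without _x_at and _s_at probe sets, 1 after the lowess correction and 0 under the other tie rule. Fewer genes or a higher threshold account for the counts at 1.5-fold and past the 60th percentile by construction; the cause of the other shifts was not tested. Both the dim members and the single-probe-set value of TNFRSF10A are limited by signal and by the lack of a repeat.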

Other observations

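Besides the 133 probe sets of the members, 5 probe sets were annotated to a member together with another gene and were attributed to neither. Their log2 differences ranged from -0.21 to 0.19.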
